A study of Homo sapiens with 4 samples.

Results

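The Sprouty, SPRED and dual specificity phosphatase (DUSP) genes encode inhibitors that growth factor signalling switches on against itself. The genes described here are SPRY1, SPRY2, SPRY4, SPRED1, SPRED2, DUSP1, DUSP4, DUSP5, DUSP6 and DUSP10, a list of 10 among 17687 genes with a probe set that names exactly 1 gene. The list was chosen with earlier results of these data known, so shares over all genes are printed beside its counts for scale only. All 10 were measured, each by 1 probe set. RNA came from KGN, an established human cell line derived from a granulosa cell tumour, and was hybridised to Clariom S Human arrays. The groups were siYT+8Br-cAMP (siRNAs against YAP and TAZ at 5 nM each, then 0.5 mM 8Br-cAMP), siYT (the same siRNAs without 8Br-cAMP), siNC+8Br-cAMP (control siRNA at 10 nM, then 0.5 mM 8Br-cAMP) and siNC (control siRNA alone). All groups were transfected, medium with or without 8Br-cAMP was given after 48 h, and culture went on for 24 h. Each group was 1 array, so no difference has a replicate check, no test across replicates could be made and no p-value is given. YAP and TAZ siRNAs were used together, so their single effects cannot be told apart.

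Receptor tyrosine kinases activate RAS, RAF, MEK and ERK in turn, and ERK raises transcription of its own inhibitors. Sprouty proteins act between receptor and RAF, and SPRED proteins bind neurofibromin and bring it to RAS. The DUSPs remove phosphate from the threonine and tyrosine of MAP kinases. DUSP5 and DUSP6 are selective for ERK, in the nucleus and the cytoplasm. DUSP1 and DUSP4 are nuclear and act on ERK, JNK and p38, while DUSP10 prefers p38 and JNK. In mice, ERK activity in granulosa cells is needed for the ovulatory response to luteinizing hormone. 8Br-cAMP is a cell-permeable analogue of cyclic AMP, the messenger of the gonadotropins, and YAP and TAZ are coactivators that the Hippo kinases hold back.

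Promoter windows are shown for DUSP1 and SPRY1, the genes with the widest ranges over the arrays among the 10. Windows of 300 bases, 250 before to 50 after an annotated start, were taken from RefSeq (GRCh38.p14) and matched 8 of the 10 genes in 13 windows. DUSP4 and DUSP5 were not matched. The searched letters, on both strands, were TGACGTCA (the cyclic AMP response element, CRE), its core TGACG, which the full element contains, TGANTCA (AP-1) and CATTCC (the core of the TEAD motif). Capitals mark any of them. DUSP1 lies at chr5:172771146-172771445 on the minus strand, and the SPRY1 windows at chr4:123396545-123396844 and chr4:123398136-123398435 on the plus strand.
DUSP1: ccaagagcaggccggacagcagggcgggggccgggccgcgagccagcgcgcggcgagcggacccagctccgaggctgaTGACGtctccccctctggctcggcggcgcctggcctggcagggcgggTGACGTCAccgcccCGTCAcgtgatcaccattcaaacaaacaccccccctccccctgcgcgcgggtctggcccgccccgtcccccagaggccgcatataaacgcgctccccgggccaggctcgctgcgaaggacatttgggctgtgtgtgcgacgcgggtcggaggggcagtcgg
SPRY1, start 1: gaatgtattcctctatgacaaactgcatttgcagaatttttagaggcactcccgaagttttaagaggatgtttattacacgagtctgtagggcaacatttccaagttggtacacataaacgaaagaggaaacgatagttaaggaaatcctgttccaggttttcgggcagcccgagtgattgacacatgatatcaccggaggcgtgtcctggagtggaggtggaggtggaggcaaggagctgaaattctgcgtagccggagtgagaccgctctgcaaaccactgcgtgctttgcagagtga
SPRY1, start 2: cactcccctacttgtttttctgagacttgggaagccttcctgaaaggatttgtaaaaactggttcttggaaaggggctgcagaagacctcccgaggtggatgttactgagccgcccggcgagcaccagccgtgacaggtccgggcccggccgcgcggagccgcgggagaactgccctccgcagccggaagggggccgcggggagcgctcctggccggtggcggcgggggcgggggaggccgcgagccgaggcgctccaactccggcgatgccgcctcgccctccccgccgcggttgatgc
The DUSP1 window held the full CRE, 125 bases before the start, with 2 further cores at 172 and 111 bases before it. Among 35116 windows, 1.85% held the full CRE and 24.6% the core. No other window of the matched genes held the full element. The core alone was present in 1 window each of SPRY2, SPRY4, SPRED2 and DUSP10. Neither SPRY1 window held any of the searched letters. SPRY4 had 1 TEAD match, which 14% of windows have, and 1 SPRED2 window had 2 AP-1 matches, which 7.71% of windows have at least once. A match of letters is a description of the window, not a bound site.

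Levels are deposited log2 units and are compared only between arrays of 1 gene, since probe sets differ in their response. Calls went by size: a difference of 1 or more (2-fold) with the higher value at or over 6.22, the median over all probe sets that name 1 gene. All 10 genes passed this level filter on all 4 arrays. The 95th percentile of the 612 negative control probe sets lay between 6.53 and 7.29 by array. SPRY2 was under it in siYT+8Br-cAMP and siYT, and DUSP6 in siYT+8Br-cAMP, so differences that use these values depend on the background. The siRNA targets were lower: YAP1 was at 6.29 in siYT+8Br-cAMP and 6.80 in siYT, against 9.46 in siNC+8Br-cAMP and 9.48 in siNC, and WWTR1 (TAZ) at 5.35 in siYT+8Br-cAMP and 5.45 in siYT, against 9.13 in siNC+8Br-cAMP and 7.58 in siNC. The 2197 positive control probe sets had median siRNA differences of -0.35 with and -0.36 without 8Br-cAMP. Of 9 measured granulosa markers, FOXL2, INHA and AMHR2 did not reach the level filter on any array, FSHR and NR5A1 reached it on no siNC array, STAR, INHBA and FST were above it on all arrays, and CYP19A1 on all but siNC. All 3 epithelial and all 3 endothelial markers, and PTPRC and LYZ of the leukocyte markers, were under the filter throughout, while CD68, a lysosomal protein also found outside leukocytes, was higher after YAP/TAZ siRNA in both media. Of the 9 granulosa markers, 4 were called higher and 1 lower after YAP/TAZ siRNA with 8Br-cAMP, and 2 higher and 1 lower without. CYP19A1 and FSHR, the latter at most at 6.63, were called higher and FST lower in both media. Of the 6 theca and stromal fibroblast markers, 2 were called higher after YAP/TAZ siRNA with 8Br-cAMP and 4 without, and 0 lower. Over all genes 5.52% were called higher and 5.94% lower with 8Br-cAMP, and 7.6% and 7.32% without. DCN and LUM were called in both media, PDGFRA had 0.06 with 8Br-cAMP and 2.53 without, COL1A1 had -0.99 and 0.11, and CYP17A1 was under the filter throughout. COL1A1 and PDGFRA were called lower with 8Br-cAMP after siYT, at -1.47 and -2.59, and had differences of differences of -1.09 and -2.48. The mean level of the 6 was 9.31 in siYT+8Br-cAMP and 10.26 in siYT, against 7.91 in siNC+8Br-cAMP and 8.11 in siNC. The part of these markers in the results below was not tested. In bulk RNA, fewer cells that express a gene and less RNA per cell cannot be told apart.

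**Figure D1:**
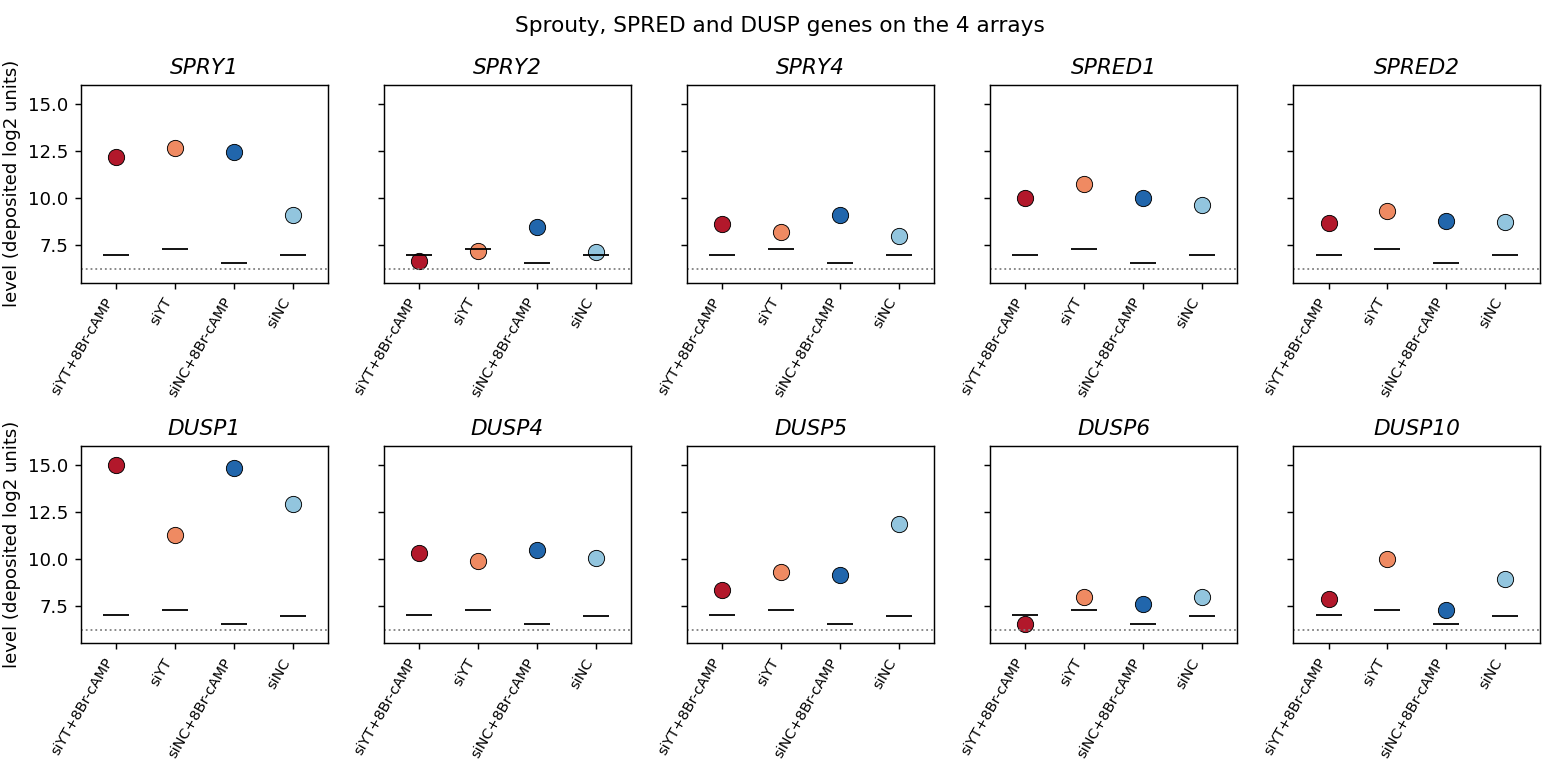
Levels of the 10 genes in deposited log2 units (vertical axis), 1 point per array, in the order siYT+8Br-cAMP, siYT, siNC+8Br-cAMP, siNC; short bars mark each array's own negative control limit (95th percentile) and the dotted line the level filter of 6.22. Heights are comparable within a panel, not between panels; SPRY1 stands low in siNC alone, DUSP5 high in siNC alone, and DUSP1 high on both 8Br-cAMP arrays.

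Effects of YAP/TAZ siRNA were taken separately in medium with and without 8Br-cAMP. With 8Br-cAMP none of the 10 genes was called higher, and SPRY2 and DUSP6 were lower. Both calls used siYT+8Br-cAMP values under that array's negative control limit. Negative control probe sets had differences from -2.05 to 2.21 (5th to 95th percentile) in this comparison. Without 8Br-cAMP, SPRY1, SPRED1 and DUSP10 were higher in siYT and DUSP1 and DUSP5 lower. Negative control differences there ran from -2.39 to 2.27, a range that held the values of SPRED1, DUSP10 and DUSP1. On each array at least 89.7% of the negative control probe sets were under the level filter. The genes called with 8Br-cAMP were thus none of those called without it, and 0 of 10 were called in the same direction in both media. With 8Br-cAMP 0 of 10 were called higher and 2 lower, where 5.52% and 5.94% of all genes, or 10% and 10.8% of the 9752 genes past the level filter, were called. Without it 3 were higher and 2 lower, where 7.6% and 7.32% of all genes, or 13.8% and 13.3% of those past the filter, were called. In both media together 3.44% of all genes were called higher and 3.89% lower, or 6.24% and 7.05% of those past the filter. A count of 0 of 10 is close to these shares.

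SPRY1 was at 12.19 in siYT+8Br-cAMP and 12.62 in siYT, against 12.46 in siNC+8Br-cAMP and 9.10 in siNC. The siNC array stood apart from the other 3, which lay within 0.43 of each other. The siRNA difference was thus -0.27 with 8Br-cAMP and 3.52 without, where SPRY1 was 11.5-fold higher in siYT than in siNC. SPRY2, which like SPRY1 restrains receptor signalling to RAS, was at 6.64 in siYT+8Br-cAMP and 7.18 in siYT, against 8.46 in siNC+8Br-cAMP and 7.13 in siNC. It was high in siNC+8Br-cAMP alone, and its siRNA difference was -1.82 with 8Br-cAMP, 3.53-fold lower, and 0.05 without. SPRY4, another Sprouty that restrains RAS activation, was at 8.59 in siYT+8Br-cAMP and 8.20 in siYT, against 9.07 in siNC+8Br-cAMP and 7.96 in siNC, and its siRNA differences of -0.48 with and 0.24 without 8Br-cAMP were not called.

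SPRED1, whose loss causes a RAS pathway syndrome in people, was at 9.98 in siYT+8Br-cAMP and 10.76 in siYT, against 10.00 in siNC+8Br-cAMP and 9.60 in siNC. The siYT array was the highest, 2.22-fold above siNC (difference 1.15), while the pair with 8Br-cAMP differed by -0.0145. Its relative SPRED2 was at 8.69 in siYT+8Br-cAMP and 9.30 in siYT, against 8.79 in siNC+8Br-cAMP and 8.73 in siNC, also highest in siYT, and was not called, with siRNA differences of -0.11 with and 0.57 without 8Br-cAMP. All 5 Sprouty and SPRED genes had a negative siRNA difference with 8Br-cAMP and a positive one without it, with medians of -0.27 and 0.57, against medians over all genes of 0.06 and 0.02. Of these 10 differences 3 were called, and those of SPRED1 with and SPRY2 without 8Br-cAMP were close to 0. The SPRED1 difference with 8Br-cAMP was positive, at 0.04, when each array was centred on its median and after quantile normalization.

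DUSP5, the nuclear ERK phosphatase, was at 8.34 in siYT+8Br-cAMP and 9.26 in siYT, against 9.14 in siNC+8Br-cAMP and 11.82 in siNC. The siNC array was the high one and the other 3 lay at least 2.56 below it. DUSP5 was 5.90-fold lower in siYT than in siNC, and the difference with 8Br-cAMP was -0.79. DUSP6, the cytoplasmic ERK phosphatase, was at 6.50 in siYT+8Br-cAMP and 7.97 in siYT, against 7.57 in siNC+8Br-cAMP and 7.97 in siNC. It was lowest with both treatments, 2.10-fold lower than in siNC+8Br-cAMP (difference -1.07), while siYT and siNC differed by 0.00425.

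DUSP1, an immediate early phosphatase of p38, JNK and ERK, was at 15.00 in siYT+8Br-cAMP and 11.27 in siYT, against 14.81 in siNC+8Br-cAMP and 12.92 in siNC. It was 3.15-fold lower in siYT than in siNC, and the arrays with 8Br-cAMP differed by 0.19. DUSP10 was at 7.87 in siYT+8Br-cAMP and 9.95 in siYT, against 7.28 in siNC+8Br-cAMP and 8.90 in siNC. It was higher after YAP/TAZ siRNA in both media, by 0.59 with 8Br-cAMP, which was not called, and by 1.05 without. DUSP4, which acts on nuclear MAP kinases, lay between 9.89 and 10.44 on the 4 arrays, with siRNA differences of -0.16 with and -0.13 without 8Br-cAMP, and was not called in any comparison.

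**Figure D2:**
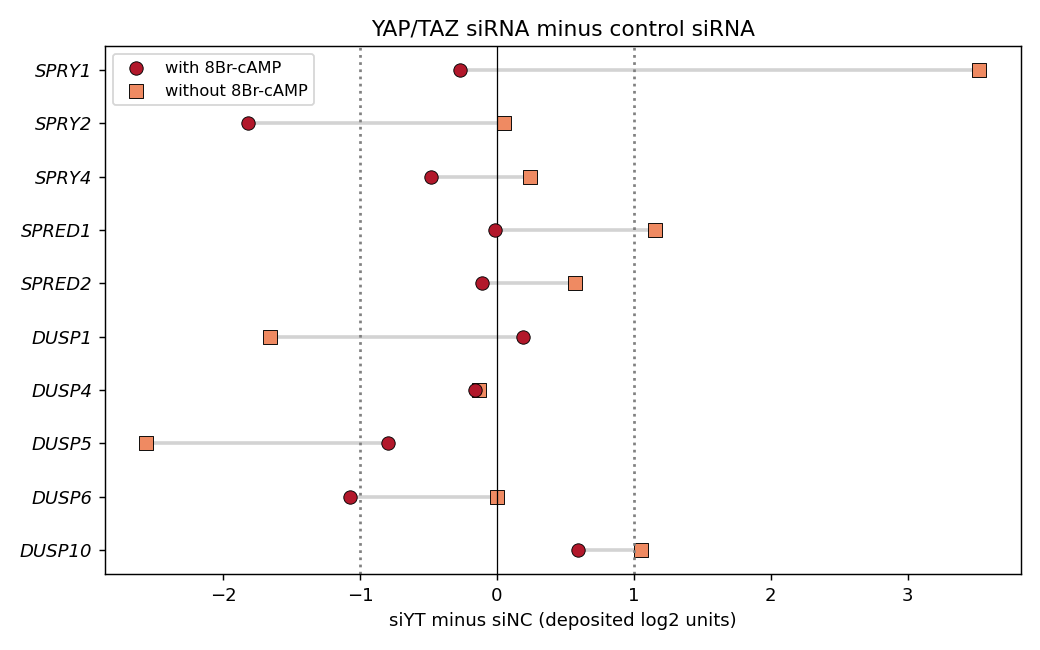
Differences siYT minus siNC in deposited log2 units (horizontal axis) for each gene, with 8Br-cAMP (circles) and without (squares); dotted lines mark the size threshold of 1. No gene lies past the same dotted line with both symbols; SPRY1 has -0.27 with and 3.52 without 8Br-cAMP.

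The siRNA differences of the 2 media come from separate arrays and are the only repeat of that comparison. They had the same sign for 3 of the 10 genes, DUSP4, DUSP5 and DUSP10, and for 72.5% of the 9752 genes past the level filter. Several of the signs rest on differences near 0, as the values above show.

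Responses to 8Br-cAMP were then taken after each siRNA. DUSP1 was higher and DUSP10 lower with 8Br-cAMP after both siRNAs. The Sprouty genes SPRY1, SPRY2 and SPRY4 were higher with 8Br-cAMP after siNC, and not called after siYT. After siYT 1 gene was called higher and 2 lower, where 4.06% and 4.15% of all genes, or 7.36% and 7.53% of those past the filter, were called. After siNC 4 were called higher and 2 lower, where 4.32% and 3.74% of all genes, or 7.83% and 6.79% of those past the filter, were called. After both siRNAs 1 was called higher and 1 lower, against 1.74% and 1.31% of all genes, or 3.16% and 2.37% of those past the filter. Negative control differences ran from -2.36 to 2.11 after siYT and from -2.28 to 1.89 after siNC. Only DUSP1 after siYT, and SPRY1 and DUSP5 after siNC, lay outside these ranges.

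DUSP1 was 13.3-fold higher with 8Br-cAMP after siYT (difference 3.73) and 3.70-fold higher after siNC (1.89). The 2 arrays with 8Br-cAMP were within 0.19 of each other, and the arrays without it were 1.66 apart, so the larger difference after siYT starts from a lower level. DUSP1 is the gene whose window, printed above, holds the full CRE. Whether that element has a part in these differences was not tested. DUSP10 was 4.24-fold lower with 8Br-cAMP after siYT (-2.08) and 3.09-fold lower after siNC (-1.63), and both arrays with 8Br-cAMP were below both without.

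SPRY1 differed by -0.43 with 8Br-cAMP after siYT and was 10.2-fold higher with it after siNC (3.36). SPRY2 differed by -0.53 after siYT and was 2.52-fold higher after siNC (1.34). SPRY4 differed by 0.39 after siYT and was 2.16-fold higher after siNC (1.11). The SPREDs were not called: SPRED1 differed by -0.78 after siYT and 0.39 after siNC, and SPRED2 by -0.62 after siYT and 0.06 after siNC. The median of the 5 Sprouty and SPRED genes was -0.53 after siYT and 1.11 after siNC, against medians over all genes of -0.02 and -0.03.

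The ERK-selective phosphatases among the 10 genes, DUSP5 and DUSP6, had negative 8Br-cAMP differences, each called after 1 of the siRNAs. DUSP5 differed by -0.92 after siYT and was 6.45-fold lower after siNC (-2.69). DUSP6 was 2.77-fold lower after siYT (-1.47) and differed by -0.39 after siNC. DUSP4 differed by 0.39 after siYT and 0.41 after siNC. The 8Br-cAMP differences had the same sign after both siRNAs for 6 of the 10 genes, SPRY4 and all 5 DUSPs, and for 66.0% of the genes past the filter.

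**Figure D3:**
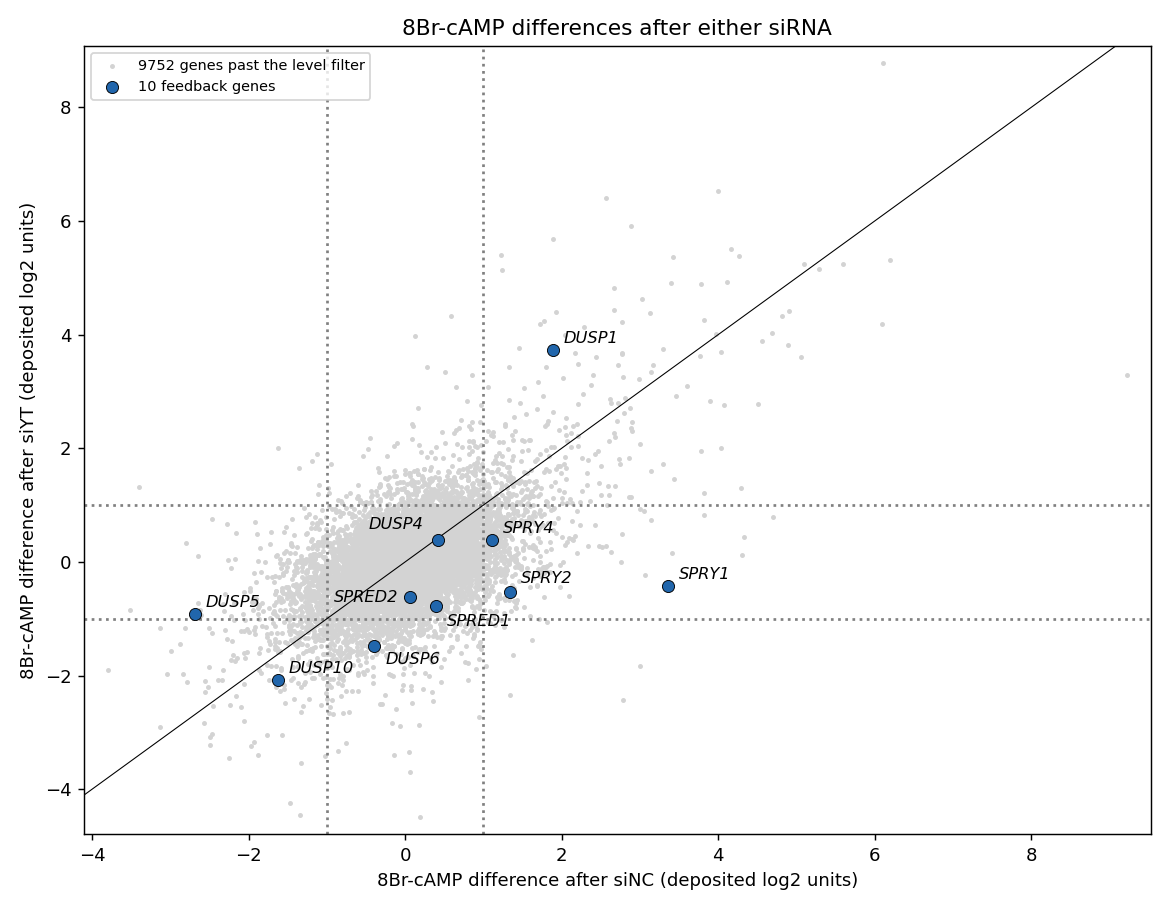
8Br-cAMP differences in deposited log2 units after siYT (vertical axis) against those after siNC (horizontal axis) for the 10 genes (labelled) and the 9752 genes past the level filter (grey); dotted lines mark differences of 1 and the solid line equal differences. DUSP1 and DUSP10 lie past the threshold on both axes; SPRY1 is at -0.43 after siYT and 3.36 after siNC.

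The third comparison asked whether the 8Br-cAMP difference depended on the siRNA. The difference of differences subtracts the value after siNC from the value after siYT; taken over the siRNA instead, with 8Br-cAMP less without, it is the same number. Of the 10 genes 2 were called positive and 4 negative, where 3.57% and 4.82% of all genes, or 6.47% and 8.75% of those past the filter, were called. Of all genes called, 631 were positive and 853 negative, and 801 and 686 when each array was centred on its median. SPRY1 had -3.79, SPRY2 -1.87, SPRED1 -1.17 and DUSP6 -1.08, and DUSP1 had 1.84 and DUSP5 1.77. The negative control probe sets ran from -3.11 to 2.73 (5th to 95th percentile), and of the called members only SPRY1 lay outside that range. The value of DUSP6 was -0.98, under the threshold, after each array was centred on its median. The remaining genes were SPRY4 with -0.72, SPRED2 with -0.68, DUSP10 with -0.46 and DUSP4 with -0.03. All 5 Sprouty and SPRED genes were negative, with a median of -1.17 against 0.01 over all genes, and the 5 DUSPs ran from -1.08 to 1.84 with a median of -0.03.

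The sign of this value follows from different arrays in different genes. For SPRY1 and DUSP5 it rests on siNC, where SPRY1 was 3.09 below its next array and DUSP5 2.56 above. The siYT and siNC+8Br-cAMP arrays differed by 0.16 for SPRY1 and 0.13 for DUSP5. The siNC array is subtracted both for the siRNA in plain medium and for 8Br-cAMP after control siRNA, so the large values of these genes in both are not separate observations. For SPRY2 it rests on siNC+8Br-cAMP, 1.29 above the next array. For DUSP6 it rests on siYT+8Br-cAMP, 1.07 below the next. With 1 array each, an interaction and a deviation of that 1 array cannot be told apart.

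Other genes of the pathway were taken from 4 lists. Over all genes, 3.44% were called higher and 3.89% lower with YAP/TAZ siRNA in both media. With 8Br-cAMP after both siRNAs 1.74% were called higher and 1.31% lower. In the difference of differences 3.57% were called positive and 4.82% negative. Among 12 other feedback phosphatases and adaptors, 7 passed the level filter, and 1 was called higher and 0 lower with YAP/TAZ siRNA in both media. This was DUSP22, an atypical phosphatase of the JNK pathway, at 7.86 in siYT+8Br-cAMP and 7.40 in siYT, against 6.12 in siNC+8Br-cAMP and 6.19 in siNC. Both siNC values were under the level filter, so the sizes depend on the background. Taken singly, the siRNA differences of the list gave 1 higher and 4 lower with 8Br-cAMP, against 5.52% and 5.94% of all genes. Without 8Br-cAMP they gave 1 higher and 0 lower, against 7.6% and 7.32%. With 8Br-cAMP after both siRNAs 0 were higher and 1 lower, the atypical phosphatase DUSP14, with -1.24 after siYT and -1.38 after siNC. Over all 12 genes, those under the filter included, the list's medians were -0.41 with and 0.10 without 8Br-cAMP for the siRNA. For 8Br-cAMP they were -0.71 after siYT and 0.04 after siNC. ERRFI1, the feedback inhibitor of the EGF receptor, and DUSP7, an ERK phosphatase, were the 2 genes called in the difference of differences, with -2.64 and -1.85; they are named after their values were seen. DUSP7 was under the negative control limit on every array, with a highest level of 6.48, so its differences depend on the background. ERRFI1 was at 13.18 in siYT+8Br-cAMP, against 15.48 in siYT, 15.66 in siNC and 16.001 in siNC+8Br-cAMP. SPRY3 and SPRED3, named as the remaining members of the Sprouty and SPRED families, were under the level filter on all arrays.

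Of the RAS to ERK core, 15 of 22 listed genes were measured and the other 7 were not analysed here. Of the 15, 14 passed the level filter. YAP/TAZ siRNA gave 0 higher and 1 lower in both media, MAP2K1, which encodes the ERK kinase MEK1, with -1.497 with 8Br-cAMP and -1.03 without. 8Br-cAMP gave 1 higher and 0 lower after both siRNAs. This was KSR1, a scaffold that holds RAF, MEK and ERK together, at 12.71 in siYT+8Br-cAMP against 8.32 in siYT, 20.9-fold higher, and at 10.76 in siNC+8Br-cAMP against 7.62 in siNC, 8.78-fold higher. It was also the 1 gene of the core called in the difference of differences, with 1.25. The median of the core genes was 0.30 with and 0.50 without 8Br-cAMP for the siRNA, and -0.19 after siYT and 0.13 after siNC for 8Br-cAMP.

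Among 21 measured genes that ERK is known to switch on or act through, 18 passed the level filter. Of the 21, 1 was higher and 3 lower with YAP/TAZ siRNA in both media. The other 17 were not called in the same direction in both media. FOSL1, an AP-1 subunit stabilised by ERK, differed by -2.08 with 8Br-cAMP and -3.14 without, the transcription factor MYC by -2.24 with and -2.68 without, and the receptor EPHA2 by -1.58 with and -2.42 without. EPHA4, a related ephrin receptor, was the gene called higher, by 1.21 with and 1.38 without 8Br-cAMP. With 8Br-cAMP after both siRNAs 1 was higher, EPHA4 again (1.63 after siYT and 1.79 after siNC), and 3 were lower. These were FOSL1 (-1.97 after siYT and -3.04 after siNC), ELK3, an ETS factor (-1.18 after siYT and -2.02 after siNC), and CCND1, cyclin D1 (-1.56 after siYT and -1.59 after siNC). In the difference of differences 3 genes of the list were called positive and 2 negative, against 3.57% and 4.82% of all genes. They were LIF (1.17), PLAUR (1.10), FOSL1 (1.07), JUNB (-1.07) and EGR1 (-2.22). JUNB was over the negative control limit only in siNC+8Br-cAMP, at 6.63, and was not called in any single difference. EGR1, an immediate early transcription factor, passed the level filter only in siYT, at 7.91. It was at 5.65 in siYT+8Br-cAMP, 5.39 in siNC+8Br-cAMP and 5.44 in siNC, so its siRNA difference was 0.26 with 8Br-cAMP and 2.47 without, and its 8Br-cAMP difference -2.26 after siYT and -0.04 after siNC. LIF, PLAUR, JUNB and EGR1 are named after their values were seen. The list's medians were -0.21 with and -0.11 without 8Br-cAMP for the siRNA, and -0.36 after siYT and -0.04 after siNC for 8Br-cAMP.

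Of 11 measured p38 and JNK genes, the kinases that DUSP1 and DUSP10 act on and their partners, 1 was higher and 1 lower with YAP/TAZ siRNA in both media. ATF2, a transcription factor that p38 and JNK phosphorylate, was higher by 1.03 with 8Br-cAMP and 1.01 without, and JUN, the main target of JNK, was lower, with -1.51 with 8Br-cAMP and -1.24 without. JUN was also the 1 gene called with 8Br-cAMP after both siRNAs, with -2.84 after siYT and -2.58 after siNC. Its level of 5.85 in siYT+8Br-cAMP was under the filter. Of the 11 genes 7 passed the level filter, and the list's medians cover all 11. These medians were 0.15 with and -0.12 without 8Br-cAMP for the siRNA, and -0.30 after siYT and -0.46 after siNC for 8Br-cAMP. No gene of this list was called in the difference of differences.

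**Figure D4:**
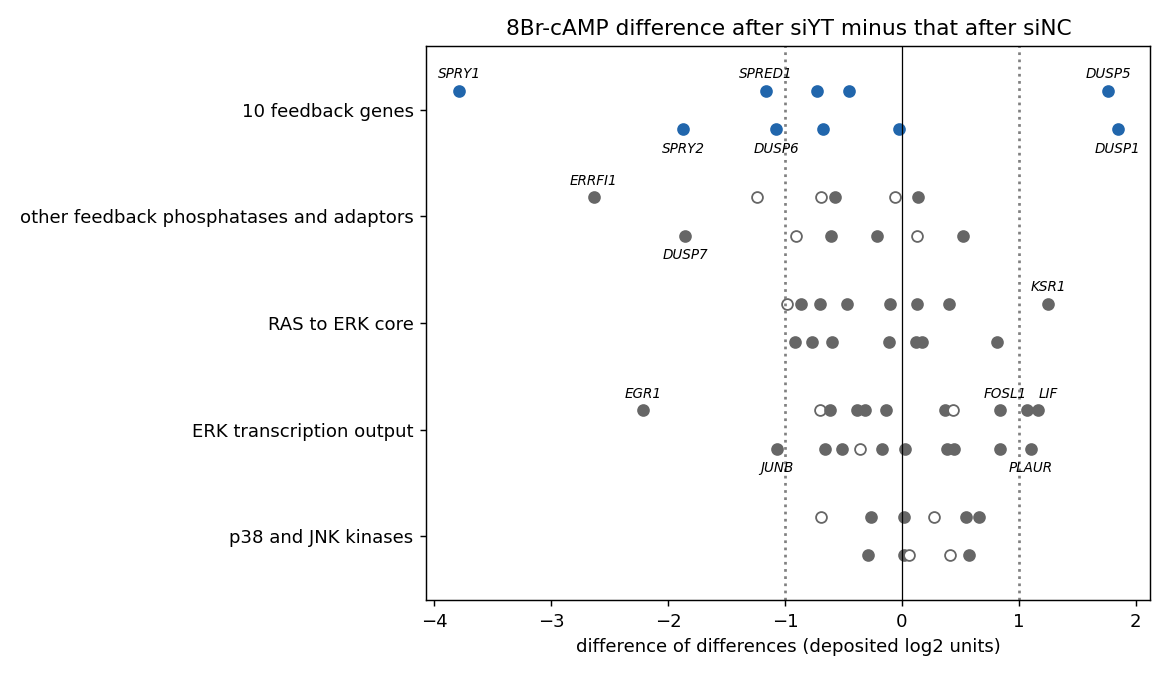
Difference of differences (value after siYT less value after siNC, horizontal axis, deposited log2 units) for the 10 feedback genes and the measured genes of the 4 pathway lists, 1 point per gene; open points are genes under the level filter on all arrays and dotted lines mark 1. SPRY1, at -3.79, lies lowest of the genes plotted, followed by ERRFI1 at -2.64.

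The genes most like the 3 widest ranging members were found among the other 9751 genes past the filter, by the root mean square distance between values centred on each gene's mean over the 4 arrays. For SPRY1 they were SHC4 (distance 0.23), ING4 (0.34) and PDK2 (0.40 log2 units). SHC4 was at 6.87 in siYT+8Br-cAMP, 6.71 in siYT and 7.08 in siNC+8Br-cAMP against 3.66 in siNC, and under the negative control limit on 3 of the 4 arrays. For DUSP5 they were ETS1 (0.18), PCK2 (0.20) and PLAT (0.20), which were likewise highest in siNC, at 9.03, 8.39 and 10.74. ETS1 and PCK2 were under the negative control limit of each of the other 3 arrays. For DUSP1 they were ULBP3 (0.23), SGK1 (0.24) and CD24 (0.31), of which SGK1 was at 15.38 in siYT+8Br-cAMP and 11.195 in siYT, against 15.23 in siNC+8Br-cAMP and 13.51 in siNC. With 4 arrays a close match is easily found, and likeness here describes these arrays alone.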

How the data were processed

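The authors hybridised biotin-labelled RNA to Clariom S Human arrays and deposited log2 values that come from RMA (Affymetrix Expression Console), per the labels and the submitters' processing notes. RMA corrects background, equalises the distributions of the arrays and summarises each probe set, so a shift common to all genes would not be seen. Versions and the annotation build are not given in the sources used here. Values reached 19.36, above the 16 bits of a scanner, so a further rescaling is possible and a fold computed from these units need not be a ratio of signals.

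Of 24351 probe sets, 17709 named 1 gene in the platform annotation and gave 17687 genes; all 17709 matched a RefSeq gene by Entrez ID. Probe sets of a gene were averaged. Differences and size calls were computed for 7 comparisons with Python 3.11.15 and pandas 2.3.3, and 9 alternatives were run, normalizations with limma 3.58.1 in R 4.3.3. Only the rule for a siRNA call in both media was tested on simulated data. That test does not cover the other comparisons or the noise of these arrays. With 1 array per group no test was made, and the number of arrays limits the precision. The 10 genes and all lists were chosen with earlier results of these data known. Beside the 10 genes, up to 3 genes per list and comparison called in both of its cases, by mean difference, were named, with YAP1, WWTR1 and the 3 nearest genes of the 3 members of widest range. ERRFI1, DUSP7, EGR1, LIF, PLAUR and JUNB were named after their values were seen, and SPRY3 and SPRED3 for their families, outside this rule. Promoter sequences are RefSeq's, GRCh38.p14.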

Additional observations from a re-analysis of the deposited data

Results flagged for a closer look

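Some genes had opposite signs of a difference in the 2 settings, with a difference of differences of at least 1. None of these was tested, since each group is 1 array. SPRY1 (difference of differences -3.79) had siRNA differences of -0.27 with and 3.52 without 8Br-cAMP, and 8Br-cAMP differences of -0.43 after siYT and 3.36 after siNC. SPRY2 (-1.87) had -1.82 and 0.05 for the siRNA, and -0.53 and 1.34 for 8Br-cAMP. SPRED1 (-1.17) had -0.0145 and 1.15 for the siRNA, and -0.78 and 0.39 for 8Br-cAMP. DUSP1 (1.84) had 0.19 and -1.66, and DUSP6 (-1.08) had -1.07 and 0.00425, both for the siRNA only. The siRNA difference of SPRED1 with 8Br-cAMP and those of SPRY2 and DUSP6 without it were within 0.1 of 0, so their signs carry little.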

How the results depend on the processing

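No paired analysis was possible because each group is 1 array, and for the same reason no replicate could be left out. The alternatives were no level filter, a filter at the 95th percentile of the negative controls (6.95), centring, quantile and cyclic loess normalization, log2 of the linear value plus 32, size thresholds of 0.5 and 1.5, and the highest probe set of a gene. Of the 63 counts of called members recomputed, 57 were within 1.5 times the reported count and 6 were not. With the threshold at 1.5, 1 member was called for the siRNA with 8Br-cAMP and 3 without it. With 0.5, 4 were called for the siRNA with 8Br-cAMP, 7 for 8Br-cAMP after siYT and 2 for the siRNA in both media (DUSP5 lower and DUSP10 higher). With log2 of the linear value plus 32, 1 was called for the siRNA with 8Br-cAMP, since DUSP6 had -0.86; its difference of differences was also -0.86 there, and -0.98 after centring. These 3 were the only calls lost among 200 member differences under the 4 alternatives that change their values; 197 stayed on their side of the threshold and no called difference reversed. Taking the highest probe set changes nothing for the members, each with 1 probe set. Over all genes, centring moved the share of positive values among those called in the difference of differences to 53.9%, against 42.5% as deposited. What the arrays cannot show is the spread between cultures.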
